A study of Astyanax mexicanus with 12 samples.

Results

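MicroRNAs (miRNAs) that were scarce in 24-h-post-fertilization (hpf) *Astyanax mexicanus* embryos and had no count in any library of at least 1 morph are described here. They were chosen from the deposited counts as the miRNAs with a mean raw count under 10 over the 12 libraries and a count of 0 in all 3 libraries of surface fish, Pachón, Tinaja, or Molino. The rule was met by 37 of the 683 mature miRNAs, and 180 had a mean under 10. The zeros and the low means are thus what the miRNAs were selected for. Between-morph differences among them are therefore a description, and no p-value is given for any of them.

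Small RNA was sequenced from wild-type (WT) embryos of the river-dwelling surface fish and of 3 cave-dwelling morphs, Pachón, Tinaja, and Molino, each named after its cave. All were sampled at 24 hpf, and each morph is represented by 3 replicate libraries. The sources used here do not say how the embryos of a morph were divided among its libraries, so the spread between replicates may be technical, and each morph is known only from this collection. Whole embryos hold many cell types, and fewer cells of a type and less miRNA per cell cannot be told apart in such samples.

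miRNAs are short noncoding RNAs that are cut from hairpin precursors and, loaded onto Argonaute proteins, repress mRNAs that pair with their seed, mostly in the 3′ UTR. In embryos many of them are made in only some tissues or cell types, so a miRNA can be rare in a whole-embryo library and still be plentiful in a few cells. The names used here are those of the authors' catalog. The sequences and genomic positions behind the names were not analysed here, so no seed, family, target, or tissue of origin is assigned to any of these miRNAs, and the labelled tissue could not be checked against marker miRNAs.

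Total counts per library ranged from 5539157 in surface fish replicate 3 to 15279059 in Pachón replicate 2. Over the 3 libraries of a morph, surface fish had 20637474 counts, Molino 23973711, Tinaja 34600155, and Pachón 37241477. A miRNA without a count in a morph may still be present at up to 3 counts over the 3 libraries. This ceiling corresponds to 0.144 CPM (counts per 1000000 counts of a library) in surface fish, 0.128 CPM in Molino, 0.0869 CPM in Tinaja, and 0.0811 CPM in Pachón. CPM values here use library sizes adjusted by TMM factors. The ceilings and all intervals cover counting error only, because the reads carry no molecular identifiers and may be PCR copies of each other. They also assume that a miRNA is mapped and counted equally well in every morph. All libraries were aligned to the same precursors, and this assumption was not tested.

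Together the 37 miRNAs made up a small portion of the libraries. Their counts summed to 26.8 to 31.3 CPM in the Molino libraries, 18.0 to 21.5 CPM in Tinaja, 17.5 to 22.1 CPM in surface fish, and 13.8 to 15.9 CPM in Pachón. The range of Molino did not overlap with that of any other morph, and neither did the range of Pachón. These sums come from the counts that the rule used. It took 17 of the 37 at 0 in Pachón and 13 in each other morph, and its limit is on raw counts, not on CPM. Nothing is therefore read from the order of the ranges. The mean count of a miRNA lay between 1.0 and 9.75, with a median of 5.0, compared with 5.5 for the 143 other miRNAs with a mean under 10 and 31.9 over all 683. The plot of raw counts shows every one of these miRNAs in every library.

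**Figure D1:**
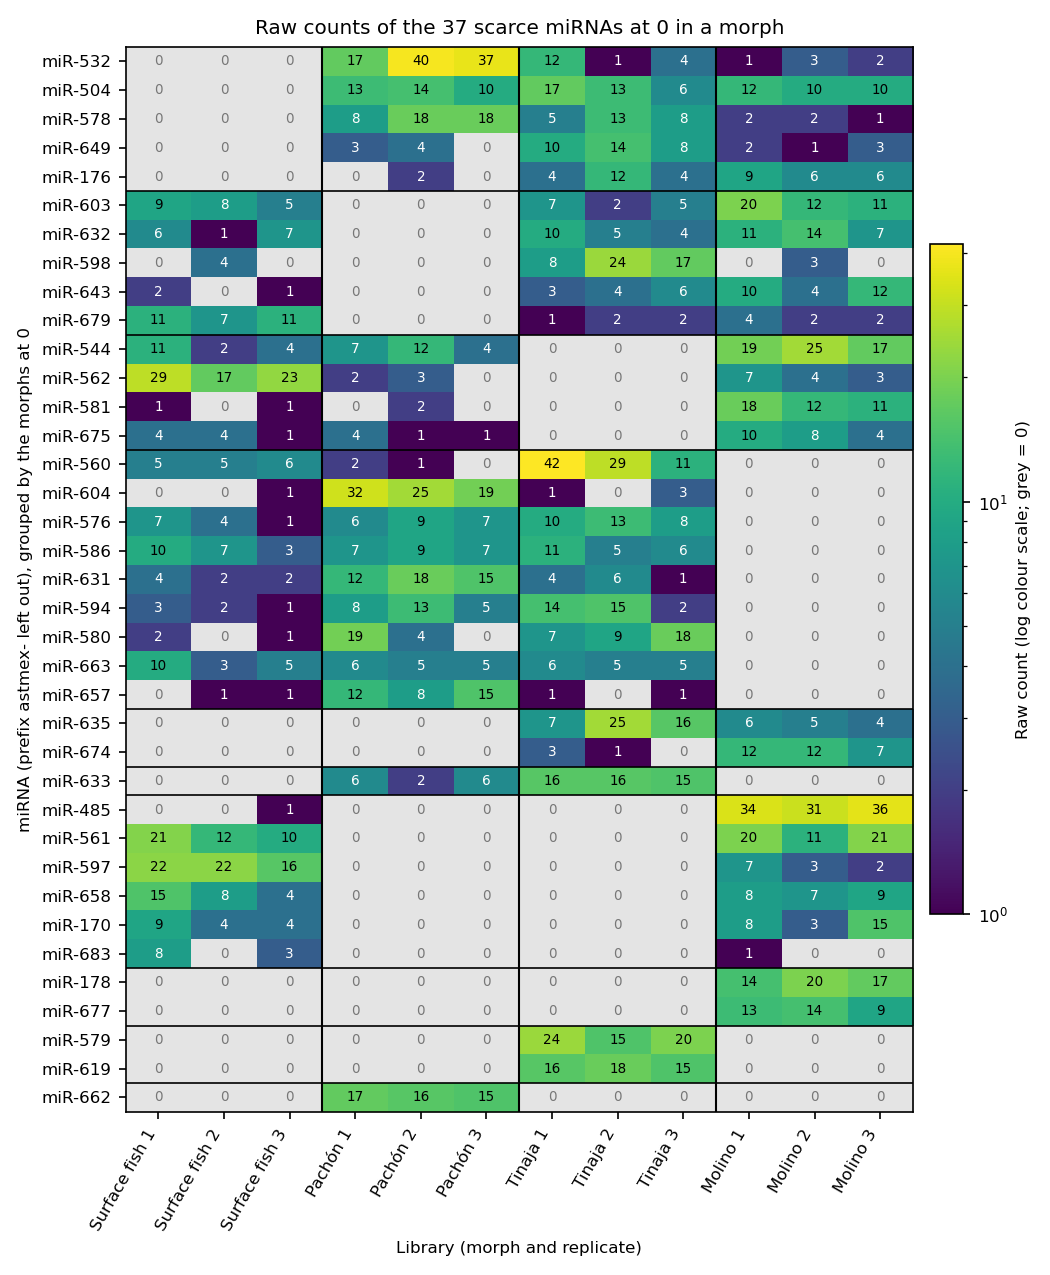
Raw counts of the 37 miRNAs (rows) in the 12 libraries (columns, 3 per morph), colored on a log scale with 0 in grey. Rows are grouped by the morphs in which all 3 libraries were at 0. The 9 miRNAs missing only from Molino and the 6 missing from both Pachón and Tinaja form the largest blocks, and 5 miRNAs were found in 1 morph alone.

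Of the 37 miRNAs, 23 lacked counts in exactly 1 morph, 9 in exactly 2, and 5 in 3 morphs. Pachón was at 0 for 17 of them, and surface fish, Tinaja, and Molino for 13 each, which gives 56 pairs of a miRNA and a morph at 0. Pachón, the morph with the deepest libraries, was thus most often at 0 on this list, but the order turned with the limits. With at most 1 count in place of 0 in each library, surface fish came first with 30, followed by Pachón and Tinaja with 21 each and Molino with 20. This limit is looser in shallow libraries, since 1 count was 0.117 to 0.172 CPM in surface fish and 0.0669 to 0.097 CPM in Pachón. Over all 683 miRNAs, Molino was at 0 for 30, Pachón for 27, Tinaja for 25, and surface fish for 23. By combination, 9 miRNAs were missing only from Molino, 5 only from surface fish, 5 only from Pachón, and 4 only from Tinaja. Pachón and Tinaja together lacked 6, surface fish and Pachón 2, and surface fish and Molino 1. No miRNA of the list was missing from all 3 cave morphs and held by surface fish alone, but 1 miRNA with a mean of at least 10 was. The 5 missing only from surface fish had counts in every cave morph, though for astmex-miR-176 these were only 2 in Pachón. Of the 13 miRNAs at 0 in Tinaja, 8 (61.5%) were also at 0 in Pachón, and these made up 47.1% of the 17 at 0 in Pachón. Surface fish and Pachón shared 6 zeros (46.2% and 35.3% of their lists), and Tinaja and Molino shared 1 (7.69% of each). Another 37 miRNAs at 0 in a morph were too abundant for the rule. Among them surface fish and Pachón shared 0 zeros, and Tinaja and Molino shared 2 (16.7% and 11.8%). Pachón and Tinaja shared 5 there (50.0% and 41.7%). The overlaps therefore describe the selected list, and no relation between morphs is read from them.

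Each of the 5 miRNAs found in 1 morph alone had counts in all 3 libraries of that morph. Molino alone held astmex-miR-178, with 14, 20, and 17 counts in its libraries, and astmex-miR-677, with 13, 14, and 9 counts. Their levels in Molino were 2.19 ± 0.424 CPM (SD, n = 3) and 1.54 ± 0.349 CPM (SD, n = 3). For astmex-miR-178 this was at least 15.2-fold higher than in surface fish, 26.9-fold higher than in Pachón, and 25.1-fold higher than in Tinaja. Here and below, each lower limit sets the pooled level, without its counting error unless stated, against 3 counts over the libraries at 0. Such a limit depends on how many libraries are pooled, and for each of the 56 zeros leaving out 1 library lowered it by more than 1.5 times. Mostly this was the library of the morph at 0 with the largest TMM-adjusted size. Without surface fish replicate 1, Pachón replicate 2, and Tinaja replicate 2, in turn, the limits of astmex-miR-178 were 8.93-fold, 16.0-fold, and 15.1-fold. The corresponding limits of astmex-miR-677 were 10.7-fold, 19.0-fold, and 17.7-fold, or 6.31-fold, 11.3-fold, and 10.7-fold without these libraries. Tinaja alone held astmex-miR-579, with 24, 15, and 20 counts, and astmex-miR-619, with 16, 18, and 15 counts. astmex-miR-579 stood at 1.80 ± 0.637 CPM (SD, n = 3) in Tinaja, at least 11.9-fold above surface fish, 21.1-fold above Pachón, and 13.3-fold above Molino, or 7.0-fold, 12.6-fold, and 8.81-fold without surface fish replicate 1, Pachón replicate 2, and Molino replicate 1, respectively. For astmex-miR-619, at 1.46 ± 0.250 CPM (SD, n = 3), the limits were 9.87-fold, 17.5-fold, and 11.1-fold, or 5.82-fold, 10.4-fold, and 7.32-fold without the same libraries. Pachón alone held astmex-miR-662, with 17, 16, and 15 counts, a level of 1.32 ± 0.220 CPM (SD, n = 3) and at least 9.01-fold above surface fish, 14.9-fold above Tinaja, and 10.1-fold above Molino. These limits were 5.31-fold, 8.98-fold, and 6.68-fold without surface fish replicate 1, Tinaja replicate 2, and Molino replicate 1, respectively. The highest library of each of these miRNAs held at most 24 counts, and the libraries of the other 3 morphs held none.

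**Figure D2:**
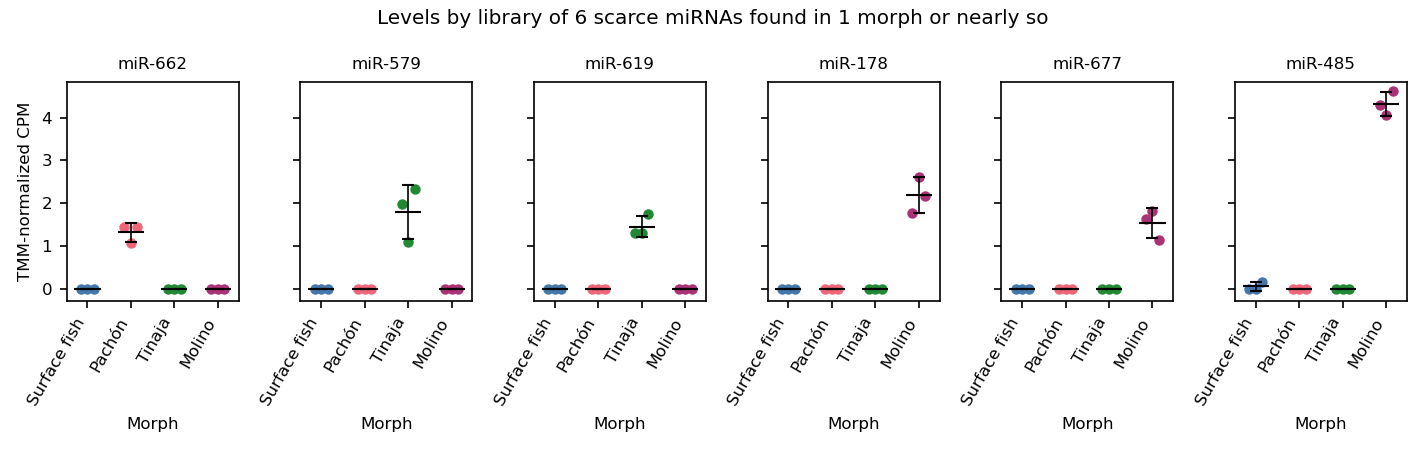
TMM-normalized CPM by library (points) with the mean (long horizontal line) and SD (error bar, n = 3) in each morph for the 5 miRNAs found in 1 morph alone and for astmex-miR-485. The latter had the highest level, 4.32 CPM in Molino, and a single count in 1 surface fish library.

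Others were nearly confined to 1 morph. The largest difference on the list belonged to astmex-miR-485, with 34, 31, and 36 counts in Molino, 0, 0, and 1 in surface fish, and none in Pachón or Tinaja. Its level in Molino, 4.32 ± 0.281 CPM (SD, n = 3), was at least 53.3-fold above Pachón and at least 49.7-fold above Tinaja. With the lower end of the Poisson interval of the Molino count, these limits were 43.4-fold and 40.5-fold, and without Pachón replicate 2 or Tinaja replicate 2 they were 31.7-fold and 29.9-fold. The libraries of Molino stood far above all others, with no overlap. In all, 10 of the 37 miRNAs had over 90% of their summed morph levels in 1 morph, and that morph was Molino for 5 of them, Pachón for 2, Tinaja for 2, and surface fish for 1. The level was highest in Molino for 14 of the 37, in Tinaja for 10, in surface fish for 7, and in Pachón for 6. Both tallies come from the counts that the rule used, whose limit is on raw counts and not on CPM. They were not made for other miRNAs, so nothing is read from the order of the morphs.

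Among the 9 miRNAs missing only from Molino, the highest level was that of astmex-miR-560. It had 42, 29, and 11 counts in Tinaja, 5, 5, and 6 in surface fish, and 2, 1, and 0 in Pachón. The Tinaja level of 2.28 ± 1.10 CPM (SD, n = 3) varied widely between replicates, and the pooled level was at least 18.5-fold above Molino. astmex-miR-604 was mainly a Pachón miRNA, with 32, 25, and 19 counts there, 0, 0, and 1 in surface fish, and 1, 0, and 3 in Tinaja. It reached 2.08 ± 0.564 CPM (SD, n = 3) in Pachón, at least 16.0-fold above Molino. Without Molino replicate 1, the limits of astmex-miR-560 and astmex-miR-604 were 12.2-fold and 10.6-fold. The remaining 7 were astmex-miR-576, miR-580, miR-586, miR-594, miR-631, miR-657, and miR-663, with at most 19 counts in any library. Among these, astmex-miR-586 and astmex-miR-663 had similar raw counts in the other morphs, 3 to 11 and 3 to 10 counts per library. Relative to depth, their mean levels were higher in surface fish, with wide spread. For astmex-miR-586 they were 0.922 ± 0.355 CPM in surface fish, 0.626 in Pachón, and 0.655 in Tinaja (SD, n = 3). For astmex-miR-663 they were 0.831 ± 0.353, 0.444, and 0.480 CPM (SD, n = 3).

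The 6 miRNAs missing from Pachón and Tinaja were held by both surface fish and Molino, some at like levels and others mainly in 1 of these morphs. astmex-miR-561 was found at like levels in both, with 21, 12, and 10 counts in surface fish (2.01 ± 0.392 CPM, SD, n = 3) and 20, 11, and 21 counts in Molino (2.22 ± 0.680 CPM, SD, n = 3). The Molino level was at least 27.4-fold above Pachón and 25.6-fold above Tinaja. astmex-miR-597 was mainly a surface fish miRNA, with 22, 22, and 16 counts there against 7, 3, and 2 in Molino. Its level in surface fish, 2.91 ± 0.438 CPM (SD, n = 3), was at least 35.5-fold above Pachón and 33.1-fold above Tinaja. Without Pachón replicate 2 or Tinaja replicate 2, the limits were 16.3-fold and 15.4-fold for astmex-miR-561 and 21.2-fold and 19.9-fold for astmex-miR-597. astmex-miR-658 had 15, 8, and 4 counts in surface fish and 8, 7, and 9 in Molino, and astmex-miR-170 had 9, 4, and 4 against 8, 3, and 15. Replicates overlapped between the morphs for these last miRNAs. The sixth, besides astmex-miR-485, was astmex-miR-683, the scarcest miRNA of the whole catalog, with 12 counts in all. These were 8, 0, and 3 in surface fish and 1, 0, and 0 in Molino, so 2 of the 6 libraries of the morphs that held it carried most of the counts.

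Surface fish alone lacked astmex-miR-532, miR-504, miR-578, miR-649, and miR-176. astmex-miR-532 had 17, 40, and 37 counts in Pachón, 12, 1, and 4 in Tinaja, and 1, 3, and 2 in Molino. The Pachón level of 2.57 ± 1.08 CPM (SD, n = 3) was at least 17.7-fold above surface fish, while 5 of the 6 Tinaja and Molino libraries held at most 4 counts. astmex-miR-504 was instead at like levels in all cave morphs, with 13, 14, and 10 counts in Pachón, 17, 13, and 6 in Tinaja, and 12, 10, and 10 in Molino. This corresponded to 1.01 ± 0.0901, 1.01 ± 0.355, and 1.37 ± 0.127 CPM (SD, n = 3 each), the highest of which was at least 9.51-fold above surface fish. Without surface fish replicate 1, the limits of astmex-miR-532 and astmex-miR-504 were 10.4-fold and 5.61-fold. It was the only miRNA of the 5 with at least 6 counts in all 9 cave libraries. astmex-miR-578 had 8, 18, and 18 counts in Pachón, 5, 13, and 8 in Tinaja, and 2, 2, and 1 in Molino.

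Tinaja alone lacked astmex-miR-544, miR-562, miR-581, and miR-675. astmex-miR-544 was highest in Molino, with 19, 25, and 17 counts, against 11, 2, and 4 in surface fish and 7, 12, and 4 in Pachón. The Molino level of 2.61 ± 0.576 CPM (SD, n = 3) was at least 30.0-fold above Tinaja. astmex-miR-562 was highest in surface fish, with 29, 17, and 23 counts, against 2, 3, and 0 in Pachón and 7, 4, and 3 in Molino. At 3.32 ± 0.662 CPM (SD, n = 3) it was at least 38.1-fold above Tinaja, and its surface fish libraries did not overlap with those of any cave morph. Without Tinaja replicate 2, the limits of astmex-miR-544 and astmex-miR-562 were 18.0-fold and 22.9-fold. Pachón alone lacked astmex-miR-598, miR-603, miR-632, miR-643, and miR-679, of which astmex-miR-603 had 9, 8, and 5 counts in surface fish, 7, 2, and 5 in Tinaja, and 20, 12, and 11 in Molino (this miRNA is given as an example chosen after its values were seen).

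The other 3 were missing from surface fish and 1 cave morph. astmex-miR-635 and astmex-miR-674 lacked counts in surface fish and Pachón, and astmex-miR-633 in surface fish and Molino. astmex-miR-674, with 35 counts in all, had 12, 12, and 7 in Molino and 3, 1, and 0 in Tinaja. Its Molino level of 1.33 ± 0.373 CPM (SD, n = 3) was at least 9.21-fold above surface fish and 16.3-fold above Pachón, or 5.43-fold and 9.74-fold without surface fish replicate 1 or Pachón replicate 2.

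Library depth was set against each of the 56 zeros. For each miRNA and each morph at 0, the highest level in another morph was taken with its exact 95% Poisson interval and compared with the ceiling of 3 counts. The lower end of the interval exceeded the ceiling for all 56. If the morph at 0 had held the miRNA at that highest level, its 3 libraries would have been expected to hold 18.2 to 160 counts (median 42.9). The lower limits of the fold difference had a median of 9.51 in surface fish, 9.48 in Molino, 17.5 in Pachón, and 20.2 in Tinaja, the deeper libraries giving the lower ceilings. The narrowest margin was that of astmex-miR-683 in Tinaja, at least 6.07-fold, or 3.03-fold with the lower end of the interval. It rested on surface fish replicate 1. Without this library the limit was 2.81-fold in Tinaja and 3.01-fold in Pachón, and neither of these zeros lay below the interval any longer. The zeros and the highest of several morphs were both picked from the same counts, which favors a large margin. That all 56 exceeded the ceiling is therefore a description and not a test. Compared with the lowest of the morphs that held the miRNA, an alternative chosen after seeing the data, 35 of the 56 zeros lay below the interval. For the 5 miRNAs held by 1 morph, the lowest holding morph is also the highest. Their zeros are thus among the 35 without any new comparison. For the other 21 zeros the lower end of that interval did not exceed the ceiling. Setting an interval against a ceiling is not a test of a difference, so these 21 are not shown to be at the level of that morph. Among the 23 miRNAs held by 3 morphs, the zero lay below all of them for 8, namely astmex-miR-504, miR-544, miR-576, miR-586, miR-603, miR-631, miR-632, and miR-663. For the other 15, the lower end of the interval of the lowest holding morph did not exceed the ceiling. This does not show that the morph at 0 and that morph were alike.

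**Figure D3:**
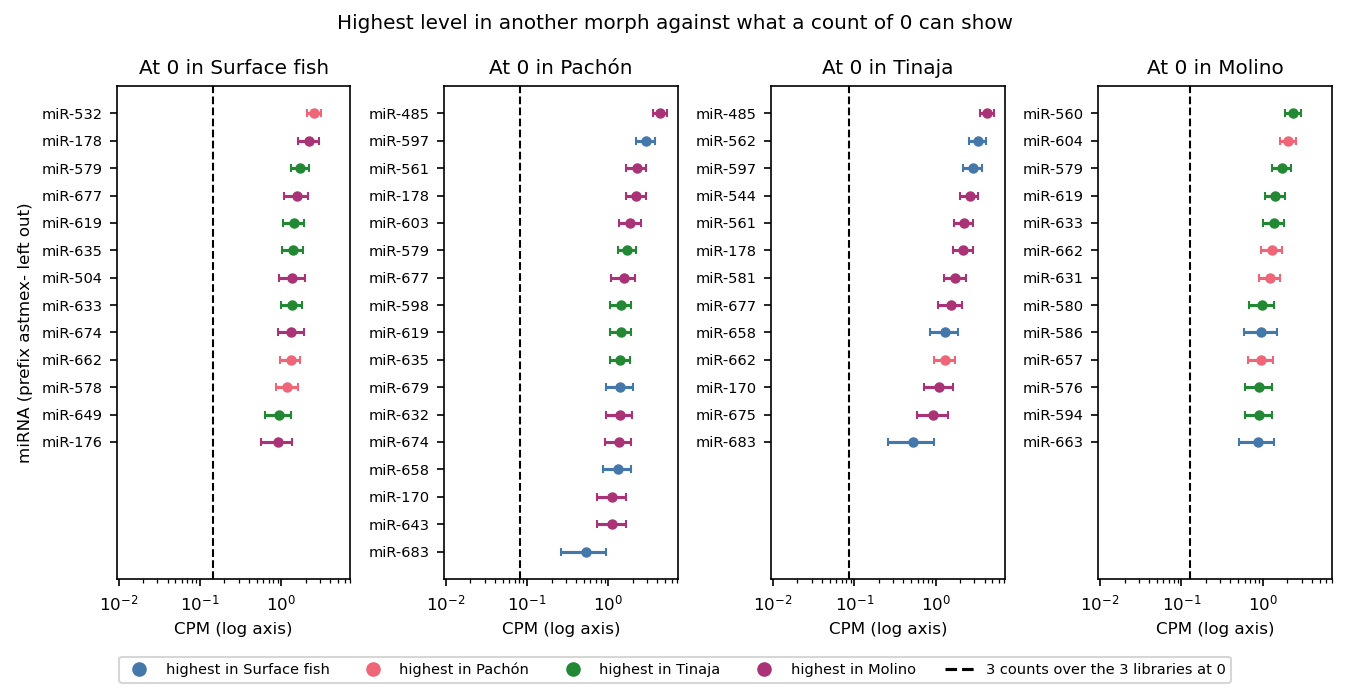
For each morph at 0 (panels), the highest pooled level of each miRNA in another morph (points, colored by that morph) with its exact 95% Poisson interval, in CPM on a log axis. The dashed line is the level of 3 counts over the 3 libraries at 0. All 56 intervals lie to the right of the line, most narrowly for astmex-miR-683.

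The zeros of the morphs were also compared at equal depth. When each library was thinned to the 5539157 counts of the shallowest, the expected number of miRNAs with a mean under 10 and no count in the morph was 21.2 in Pachón, compared with 17 at full depth. In place of 13 each, it was 18.0 in Tinaja, 15.2 in Molino, and 14.2 in surface fish. Pachón stayed first among these scarce miRNAs, and Tinaja was no longer level with Molino and surface fish. Only the zeros were thinned, while the limit on the mean stayed on the counts at full depth, in which deep libraries weigh more. The selection was thus not at equal depth, and nothing is read from the order. The more abundant miRNAs at 0 in a morph were not included in this comparison. Among those, Molino was at 0 for 17 and Pachón for 10. No error can be attached to the differences between morphs, since each morph is represented by 1 set of libraries. The numbers depended on single libraries as well. Without Tinaja replicate 1, 20 miRNAs in place of 13 met the rule through Tinaja, which then exceeded the 18 of Pachón. Fewer Tinaja libraries had to be at 0 in that case, which loosens the rule for Tinaja.

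**Figure D4:**
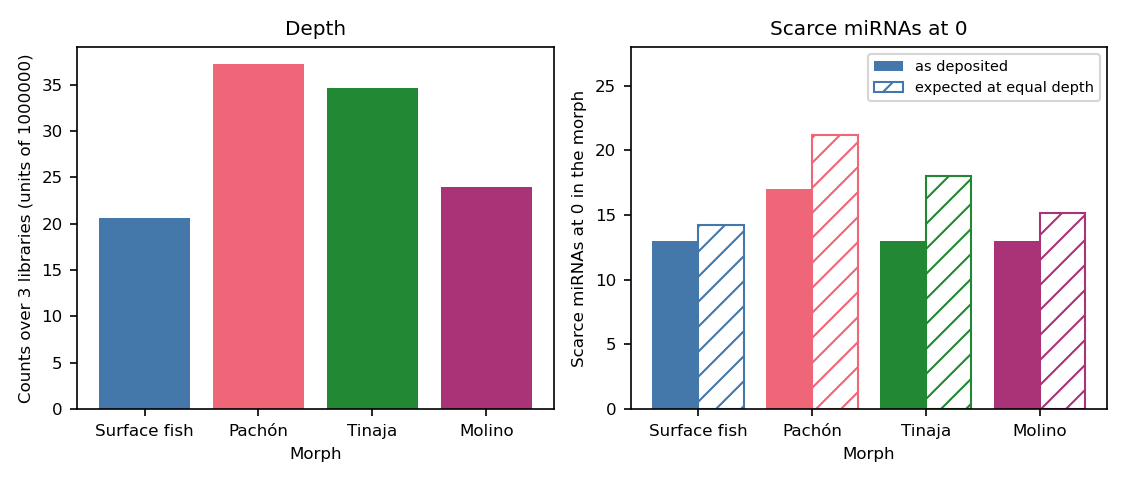
Total counts over the 3 libraries of each morph on the left, in units of 1000000, and the number of miRNAs with a mean count under 10 that were at 0 in the morph on the right, in the deposited counts (filled) and as the expectation with all libraries thinned to the smallest total (hatched). The limit on the mean was applied to the full counts in both cases. Pachón had the most counts, 37241477, and the most of these scarce miRNAs at 0, 17 at full depth and 21.2 with the libraries thinned.

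Where these miRNAs were held, most had counts in every replicate, and the replicates spread more than counting error alone gives. Each miRNA has a value in 4 morphs, which gives 148 pairs of a miRNA and a morph, of which 56 were at 0 and 12 more had 1 to 3 counts over the 3 libraries. Of the 92 with counts, 73 had counts in all 3 libraries, 12 in 2, and 7 in 1. Found in all 3 libraries were 22 of the 24 miRNAs held in Molino, 21 of 24 in Tinaja, 16 of 24 in surface fish, and 14 of 20 in Pachón. The counts of the list summed to 669 in Molino, 671 in Tinaja, 414 in surface fish, and 551 in Pachón. A miRNA with more counts is more readily found in every library, and these are the counts that the rule used. Nothing is therefore read from the order of the morphs. The spread was measured by the chi-square statistic per degree of freedom of the 3 counts against counts proportional to library size, for which counting error alone gives a median of 0.693. It had a median of 1.02 over the 66 pairs with at least 10 counts, the same as over 403 such pairs from the other miRNAs with a mean under 10. It exceeded 3 in 9 of the 66, where counting error alone would give 3.29. The largest values, named after they were seen, were those of astmex-miR-580, 14.1 in Pachón, with 19, 4, and 0 counts, and 7.17 in Tinaja, with 7, 9, and 18 counts. Next came astmex-miR-532 in Tinaja at 5.48 and astmex-miR-560 in Tinaja at 5.35. The levels of these miRNAs are less certain than their Poisson intervals show.

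In the fit of all miRNAs with edgeR's quasi-likelihood test, a miRNA was called where the adjusted p fell below 0.05 and the fold change reached 2. Since the rule used the counts of every morph, the numbers of calls among the 37 are set beside the percentages over all 683 only for reference, and nothing is read from them. In Pachón versus surface fish 18 were called (29.7% of all miRNAs were), in Tinaja versus surface fish 20 (28.7%), and in Molino versus surface fish 22 (34.8%). Between cave morphs 19 were called in Tinaja versus Pachón (24.9%), 30 in Molino versus Pachón (39.5%), and 27 in Molino versus Tinaja (42.8%). The edgeR default low-count filter left only 14 of the 37 in the test.

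The limits of the rule left out closely similar miRNAs. Just inside the limit on the mean were astmex-miR-532, with a mean of 9.75 counts, and astmex-miR-504, with 8.75. Just outside, with a mean of 10.2 each, were astmex-miR-461, at 0 in Pachón and at 31, 21, and 24 counts in Molino, and astmex-miR-547, at 0 in Tinaja and Molino and at 51, 40, and 29 counts in Pachón. Regardless of the mean, 74 miRNAs were at 0 in a morph, so that the 37 described here have 37 more abundant counterparts, with means of 10.2 to 837 counts. Molino was at 0 for 17 of these counterparts, Tinaja for 12, and Pachón and surface fish for 10 each. Missing from 3 morphs were 5 of the scarce miRNAs (13.5%) and 1 of the more abundant ones (2.7%), the latter held by surface fish alone. Zeros in 3 morphs themselves lower the mean that divides these lists, so nothing is read from this difference. On the side of the zeros, 17 of the 143 other miRNAs with a mean under 10 missed the rule by 1 count, and 40 had 1 to 3 counts over the libraries of their lowest morph. astmex-miR-508, for example, had 0, 1, and 0 counts in Molino and 32, 25, and 24 in Pachón.

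The number in the name ran against abundance over the catalog, with a Spearman's rho of −0.92 between number and mean count across the 683 miRNAs, which are not independent replicates. The 37 miRNAs had a median number of 598, near the 590 of the other miRNAs with a mean under 10. Of the 37, 34 carried numbers from 485 to 683. The other 3, astmex-miR-170, miR-176, and miR-178, carried lower numbers than the rest. They were not alone in this, since 11 miRNAs with a mean under 10, these 3 included, had numbers under 400. The 28 other miRNAs numbered 160 to 190 had mean counts from 4.17 upward, with a median of 36.6. astmex-miR-176 had 9, 6, and 6 counts in Molino, 4, 12, and 4 in Tinaja, 0, 2, and 0 in Pachón, and none in surface fish. The pooled level of all 3 was highest in Molino, and Pachón was at 0 for astmex-miR-170 and astmex-miR-178. The Molino libraries overlapped with those of surface fish for astmex-miR-170 and with those of Tinaja for astmex-miR-176. Only astmex-miR-178 stood apart in Molino. How the authors numbered the miRNAs is not given in the sources used here.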

How the data were processed

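Small RNA of 24 hpf embryos was sequenced from 4 morphs in 12 libraries. The authors removed adapters with Cutadapt (v2.5), discarded short reads and reads on other noncoding RNAs, and ran miRDeep2 on the pooled reads of all samples with the *A. mexicanus* 2.0 assembly to call miRNAs. They merged miRNAs of identical sequence and then aligned each library to the precursors for counting. They deposited raw counts per mature miRNA and library, not normalized and not pooled. 0 columns were left unused. The calling on combined reads required a minimum of reads or a seed known from zebrafish, so miRNAs rarer than that were not in the catalog.

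Members and lists were chosen with earlier results of these data known. The miRNAs with a mean count under 10 and 0 counts in all 3 libraries of a morph were selected. Pooled CPM is the summed count of a morph over its summed TMM-adjusted library sizes. Lower limits of fold differences set the pooled level, without its counting error unless stated, against 3 counts over the libraries at 0. Intervals are exact Poisson intervals. Tests used edgeR 4.0.16 in R 4.3.3 (TMM, glmQLFit, glmQLFTest, all 12 libraries, a mean per morph, no low-count filter), with Benjamini−Hochberg adjustment over 683 miRNAs. The script was tested on simulated counts. Replicate libraries differed by more than counting noise (chi-square of 13.2 to 641 per degree of freedom), so none was taken for a copy. Named miRNAs were, for each morph, the 4 members at 0 with the largest lower limit, the 6 most abundant held by 1 morph (5 exist), the 2 nearest each side of the limit on the mean, and the 2 with the fewest counts; others named were chosen after their values were seen. Alternatives were other scalings (none, RLE), DESeq2 1.42.0, filterByExpr, fits of 6 libraries, a replicate block, other limits of the rule, thinning, and leaving out each library.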

Additional observations from a re-analysis of the deposited data

How the results depend on the processing

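The list depended on its limits. With at most 1 count in place of 0 in each library of a morph, 65 miRNAs met the rule, with 30 through surface fish, 21 through Pachón, 21 through Tinaja, and 20 through Molino. A limit of 10 on mean TMM CPM in place of mean count gave 69 miRNAs, and a limit of 5 counts gave 18. Leaving out each library once, 36 to 45 miRNAs met the rule, with 12 to 16 through surface fish, 17 to 22 through Pachón, 13 to 20 through Tinaja, and 13 to 18 through Molino. The morph that lost a library then needed fewer libraries at 0, which loosens the rule for it. Of the 37 miRNAs, 36 stayed on the list in all 12 of these cases, and the exception was astmex-miR-532, the nearest to the limit on the mean. Leaving out a library cannot undo a zero, so a miRNA could leave the list only through its mean. The 36 therefore say nothing about how stable the zeros are. Against the highest other morph, 54 to 56 of the 56 zeros lay below the Poisson interval with a library left out, the exceptions being those of astmex-miR-683 without surface fish replicate 1. Against the lowest morph that held the miRNA, 35 did with all libraries. These include all zeros of the miRNAs held by a single morph, for which both comparisons are the same. The lower limits of the fold differences fell by 1.51 to 2.16 times when the library that mattered most was left out, to a lowest value of 2.81 and a median of 8.87.

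The numbers of called miRNAs among the 37 fell with edgeR's filterByExpr, which tested 14 of them, to 9 in Pachón, 8 in Tinaja, and 8 in Molino versus surface fish, 7 in Tinaja versus Pachón, 11 in Molino versus Pachón, and 11 in Molino versus Tinaja. With one library left out, the numbers in the same order were 17 to 19, 16 to 21, 18 to 23, 17 to 20, 28 to 30, and 24 to 28. With the replicate number as a block, they were 18, 20, 22, 19, 30, and 27, as without it. Same-numbered libraries of different morphs shared only a number: their deviations correlated at −0.164 to 0.12, with 3 of 18 pairs over 0.1, and 4 of 12 libraries correlated best with their own number. Depth limits the zeros: at the ceiling used here, each allows up to 3 counts, or 0.0811 to 0.144 CPM.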
